A study of Canis lupus familiaris with 42 samples.

Results

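The cyclins and cyclin-dependent kinase (CDK) inhibitors of the G1 phase, with the transcription factor gene E2F1, were followed in spontaneous sarcomas of dogs. The list holds 10 genes: the inhibitors CDKN2C, CDKN2B, CDKN1B and CDKN1C, the D-type cyclins CCND1, CCND2 and CCND3, the E-type cyclins CCNE1 and CCNE2, and E2F1. Of these, 9 had a probe set annotated with their symbol alone, among 15115 such genes on the array, and CDKN1C was not analysed here. For each gene the probe set with the highest mean over all 42 arrays was used, and the 3 other probe sets of CDKN2C, CCND1 and CCNE1 served as a check. The genes were listed by name, with earlier results of these data known, and in the rule measured levels entered only the choice of the probe set.

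RNA from each tumour was hybridised to an Affymetrix canine array after and before the first hyperthermia treatment, which was given as an adjunct to radiotherapy. The series text speaks of 22 tumours, and the arrays analysed here came from 21, with 1 array after and 1 array before treatment each, numbered 1 to 21. The samples after treatment are labelled as treated and those before as untreated, and age, breed, sarcoma type, the time of the second sample and the radiation given by then are not in the labels. The arrays analysed here hold no second sample of an untreated tumour, so each change below is the difference between the second and the first sample of a tumour. The labels do not say that every tumour came from a different dog, and the p-values rest on the spread among the 21 tumours. In the limma fits below, the variance of each probe set is also drawn towards that of all probe sets.

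D-type cyclins bind CDK4 and CDK6 in G1, and E-type cyclins then bind CDK2. These kinases phosphorylate the retinoblastoma protein RB1, which releases E2F factors and with them the genes of DNA synthesis. Inhibitors of the INK4 family, among them the products of CDKN2C and CDKN2B, bind CDK4 and CDK6 and keep D-type cyclins from activating them. Inhibitors of the CIP/KIP family, among them those of CDKN1A and CDKN1B, bind cyclin-CDK complexes more widely. Loss of G1 control through these genes is common in sarcomas.

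The values are log2 levels, so a change of -1 means that the signal was halved. A level belongs to 1 probe set and is not set against that of another gene, and array medians ran from 5.20 to 5.31. Each array came from a piece of tumour, in which fewer cells of a type and less RNA per cell cannot be told apart. Spike-in controls added during labelling were at 6.48 to 7.67 in 9 tumours (8 to 12 and 18 to 21, called the spiked batch) and at 3.20 to 4.05 in the other 12 (the unspiked batch). No label names these batches. Each tumour was placed by the mean of its arrays, so both arrays of a tumour share a batch by definition. A measure of RNA quality, the contrast of control probe sets near the 3′ and the 5′ end of transcripts, moved by a mean of 0.38 in the spiked batch (higher in 8 of 9 tumours) and of -0.05 in the unspiked batch (higher in 5 of 12). The mesenchymal markers VIM, COL1A1, COL1A2, COL3A1 and SPARC averaged 12.7 to 14.1 per array after treatment and 12.9 to 14.1 before it, with SPARC called lower (-0.28, limma adjusted p = 0.0476), the other 4 not called and a median change of -0.14. Of 5 T cell markers, 4 fell (CD3D, CD3E, CD3G and LCK), with a mean level per array of 4.28 to 5.88 after and 4.64 to 7.06 before treatment. Myeloid markers moved too: the macrophage markers MSR1 (0.52, limma adjusted p = 0.0151) and CSF1R (-0.49, limma adjusted p = 0.0466) were called higher and lower among 5, and the neutrophil marker S100A9 (1.08, limma adjusted p = 0.0454) was called higher among 3. No B cell, endothelial, skeletal muscle, keratinocyte or adipocyte marker was called. The part of these cell types in the results below was not tested.

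Between the samples, CDKN2C, CCNE2 and E2F1 fell and no measured member rose. Limma, with the tumour as a block and Benjamini-Hochberg adjustment over all 42924 probe sets, called 3 of the 9 members lower and 0 higher at an adjusted p under 0.05. Of all probe sets tested, 2.99% were called lower and 2.97% higher. The other 6 members had mean changes between -0.17 and -0.02. The median change was -0.06 over the 9 members and 0.01 over all genes.

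**Figure D1:**
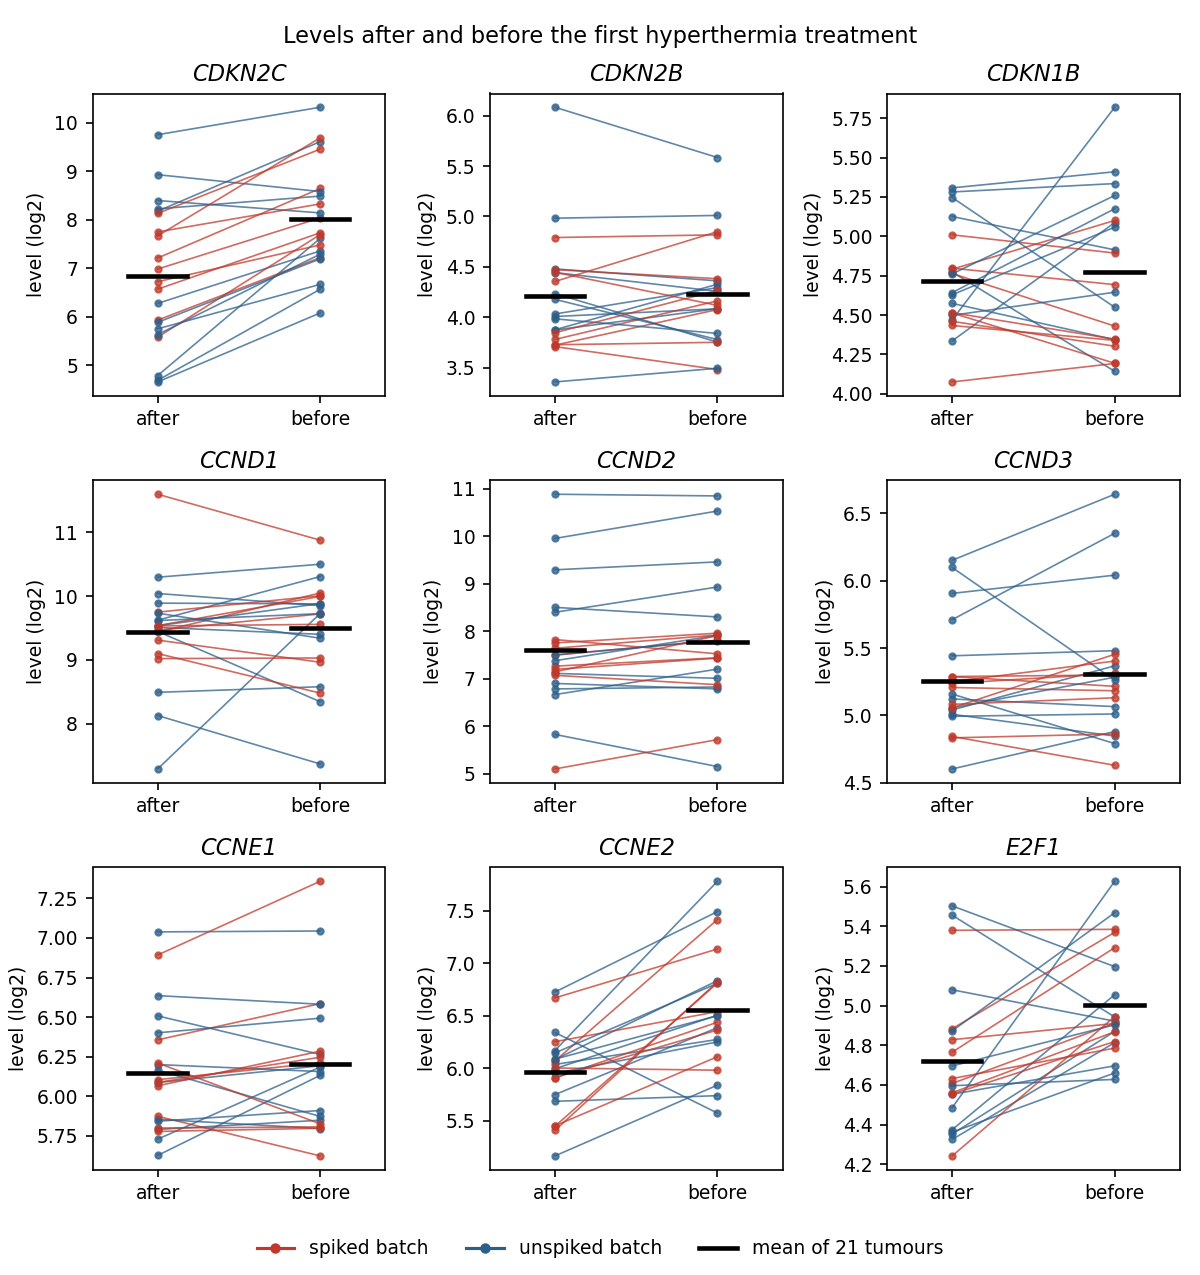
Levels (log2) of the 9 measured genes after (left) and before (right) the first hyperthermia treatment. Each line joins the arrays of 1 tumour, coloured by spiked or unspiked batch, and black bars are means of 21 tumours. CDKN2C and CCNE2 were lower after treatment in 19 of 21 tumours, and E2F1 in 18 of 21.

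CDKN2C, which encodes an INK4 inhibitor of CDK4 and CDK6, changed most among the members. Its level after treatment was lowest in tumour 3 (4.65), had a median of 6.72 and was highest in tumour 17 (9.75). Before treatment the lowest was again tumour 3 (6.08), the median 7.73 and the highest tumour 17 (10.3). The groups overlapped widely, while within tumours nearly all pairs ran the same way. The mean change was -1.17 ± 0.15 (SE, n = 21), which is 2.24-fold lower after treatment (limma adjusted p = 0.000141). The signal was at least halved in 14 tumours, and tumour 2 had the largest fall, with 4.78 after and 7.61 before treatment, a change of -2.83. The level was higher after treatment in tumour 13, by 0.35, and in tumour 15, by 0.26.

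The second CDKN2C probe set also fell. It averaged 4.76 after and 5.55 before treatment, a change of -0.79 ± 0.14 (SE, n = 21, limma adjusted p = 0.00220), and was lower in 19 of 21 tumours. By the main probe set CDKN2C changed by -1.30 among spiked tumours, 9 of 9 being lower, and by -1.06 among unspiked ones, 10 of 12 being lower. Fitted in each batch alone, CDKN2C passed among the spiked tumours (limma adjusted p = 0.00106). Among the unspiked ones CDKN2C did not pass (limma adjusted p = 0.151), and neither did any other of the 42924 probe sets. The 2 tumours with a higher CDKN2C level after treatment were unspiked. CCNE2 and E2F1 likewise passed among the spiked tumours (limma adjusted p = 0.0263 and 0.0435) and not among the unspiked ones (limma adjusted p = 0.224 and 0.425). The difference between the batches passed the interaction test for 0 of the 9 members (lowest limma adjusted p = 0.809, lowest unadjusted p = 0.169). Of all 42924 probe sets only 1 passed it, so the count of 0 does not show that the members changed alike in both batches.

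CDKN2B, the other INK4 gene of the list, encodes an inhibitor induced by TGF-beta signalling. Its level after treatment was 3.36 at the lowest, 4.03 at the median and 6.08 at the highest, against 3.48, 4.16 and 5.58 before treatment. Tumour 1 was the highest in both groups, and the other tumours covered a similar range after and before. CDKN2B changed by -0.02 ± 0.07 (SE, n = 21, limma adjusted p = 0.924), with 9 tumours higher and 12 lower. CDKN2C and CDKN2B were compared directly. The change of CDKN2C minus that of CDKN2B was -1.15 ± 0.17 (SE), and 18 of 21 tumours were below 0. A sign-flip permutation test gave p = 4e-05, or 0.0002 adjusted over 5 pairs of members. Within batches the difference was -1.19 among spiked and -1.12 among unspiked tumours (adjusted p = 0.00977 and 0.0220 by exact sign flips). The CDKN2B probe set had a mean level of 4.22, below the median of 5.28 of all probe sets. How far its low signal limits this comparison was not tested.

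In the RefSeq gene order of the dog (assembly UU_Cfam_GSD_1.0) CDKN2B lies beside CDKN2A, and MTAP, a gene of methionine salvage, follows. CDKN2A was not analysed here. MTAP changed by 0.22 ± 0.09 (SE, n = 21, limma adjusted p = 0.171).

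CDKN1B, a CIP/KIP inhibitor whose product is largely controlled by protein turnover, had levels of 4.08, 4.64 and 5.31 after treatment (lowest, median, highest) and of 4.14, 4.69 and 5.82 before it. The ranges overlapped almost completely. On average CDKN1B changed by -0.06 ± 0.10 (SE, n = 21, limma adjusted p = 0.816), with 11 tumours higher and 10 lower. Tumour 16, which had the highest level before treatment, changed by -1.35, and tumour 15 by 0.70. In the spiked batch 7 of 9 tumours were higher and in the unspiked batch 4 of 12, with mean changes of 0.10 and -0.17, and the difference between the batches did not pass the test (limma interaction, adjusted p = 0.809).

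Among the E-type cyclins, which activate CDK2 at the entry into S phase, CCNE2 fell and CCNE1 did not pass the test. CCNE2 had levels of 5.16 (tumour 14), 6.002 and 6.73 (tumour 17) after treatment, given as lowest, median and highest. Before treatment they were 5.57 (tumour 5), 6.50 and 7.78 (tumour 4). The upper end of the range was lower after treatment, and the groups overlapped. CCNE2 changed by -0.59 ± 0.11 (SE, n = 21), or 1.50-fold lower (limma adjusted p = 0.00292). CCNE2 was lower in 19 tumours, at least halved in 4, and higher in tumour 5, by 0.77, and in tumour 10, by 0.02. The largest fall, in tumour 4, was to 6.17 after treatment, against 7.78 before it. Spiked tumours changed by -0.72 on average (8 of 9 lower) and unspiked ones by -0.49 (11 of 12 lower).

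CCNE1 levels ran from 5.63 to 7.04 after treatment with a median of 6.09, and from 5.62 to 7.36 before treatment with a median of 6.18. The same tumours, 2 and 11, stood at the top in both groups. CCNE1 changed by -0.06 ± 0.05 (SE, n = 21, limma adjusted p = 0.643), and the second probe set changed by 0.03 ± 0.06 (adjusted p = 0.812). The change of CCNE2 minus that of CCNE1 was -0.53 ± 0.12 (SE), and 20 of 21 tumours were below 0 (p = 0.00013 by permutation with sign flips, 0.000325 adjusted over 5 pairs). Spiked tumours gave -0.66 and unspiked ones -0.44 (adjusted p = 0.00977 and 0.0427 by exact sign flips). The E-type cyclin genes therefore differed in their change in these tumours.

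E2F1 encodes an activating E2F factor held by RB1 in G1. Its level after treatment was 4.24 (tumour 21) at the lowest, 4.61 at the median and 5.50 (tumour 15) at the highest. Before treatment it was 4.63 (tumour 14), 4.91 and 5.63 (tumour 2). The low end and the median were lower after treatment, while the upper ends of the groups overlapped. E2F1 changed by -0.28 ± 0.08 (SE, n = 21), or 1.22-fold lower (limma adjusted p = 0.0298). It was lower in 18 tumours and higher in tumours 13, 15 and 5, and only tumour 2 had its signal at least halved. Among spiked tumours the change averaged -0.31 (9 of 9 lower), and among unspiked ones -0.26 (9 of 12 lower). The E2F1 call was close to the threshold and was lost in 6 of 21 fits that left out 1 tumour (without tumour 1, 2, 4, 10, 16 or 21, highest adjusted p = 0.0575). Once the RNA quality contrast entered the fit, its change was -0.23 (limma adjusted p = 0.0756).

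The 3 D-type cyclins, the partners of CDK4 and CDK6, showed no called change in either direction, and CCND1 and CCND2 differed widely between tumours. CCND1, a cyclin gene driven by growth factor signalling, had levels of 7.30 (tumour 6), 9.53 and 11.6 (tumour 11) after treatment, and of 7.37 (tumour 17), 9.72 and 10.9 (tumour 11) before it. The groups overlapped, and CCND1 changed by -0.06 ± 0.14 (SE, n = 21, limma adjusted p = 0.884), with 9 tumours higher and 12 lower. Single tumours moved far in opposite directions. Tumour 6 had 7.30 after and 9.73 before treatment, a change of -2.43, and tumour 15 had 9.45 after and 8.35 before, a change of 1.10. The second probe set gave -1.75 in tumour 6 and 1.61 in tumour 15, and a mean change of -0.02 ± 0.14 (SE, n = 21).

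CCND2 levels were 5.10 (tumour 19), 7.38 and 10.9 (tumour 4) after treatment and 5.15 (tumour 3), 7.80 and 10.8 (tumour 4) before it. The order of the tumours was largely kept: tumours 4, 17 and 14 had the highest levels in both groups, and tumours 3 and 19 the lowest. Before treatment the tumours spanned 5.70 on the log2 scale, and their SD of 1.35 was at the 98.4 percentile of all probe sets. The SD of the change within tumours was 0.36, so that the spread between tumours was 3.75 times as large. CCND2 changed by -0.17 ± 0.08 (SE, n = 21, limma unadjusted p = 0.0298, adjusted p = 0.193), with 14 tumours lower.

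CCND3 levels were 4.60, 5.16 and 6.15 after treatment and 4.63, 5.26 and 6.64 before it, with tumour 4 the highest in both groups. CCND3 changed by -0.05 ± 0.07 (SE, n = 21, limma adjusted p = 0.737), and the single changes ran from -0.64 in tumour 17 to 0.84 in tumour 13. The changes of the D-type cyclins were set against each other in 3 pairs. The mean differences were 0.12 ± 0.16 for CCND1 minus CCND2, -0.12 ± 0.10 for CCND2 minus CCND3 and -0.00 ± 0.18 for CCND1 minus CCND3 (SE, n = 21). None passed the sign-flip permutation test (adjusted p from 0.399 to 0.981), which does not show that the 3 genes changed alike.

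**Figure D2:**
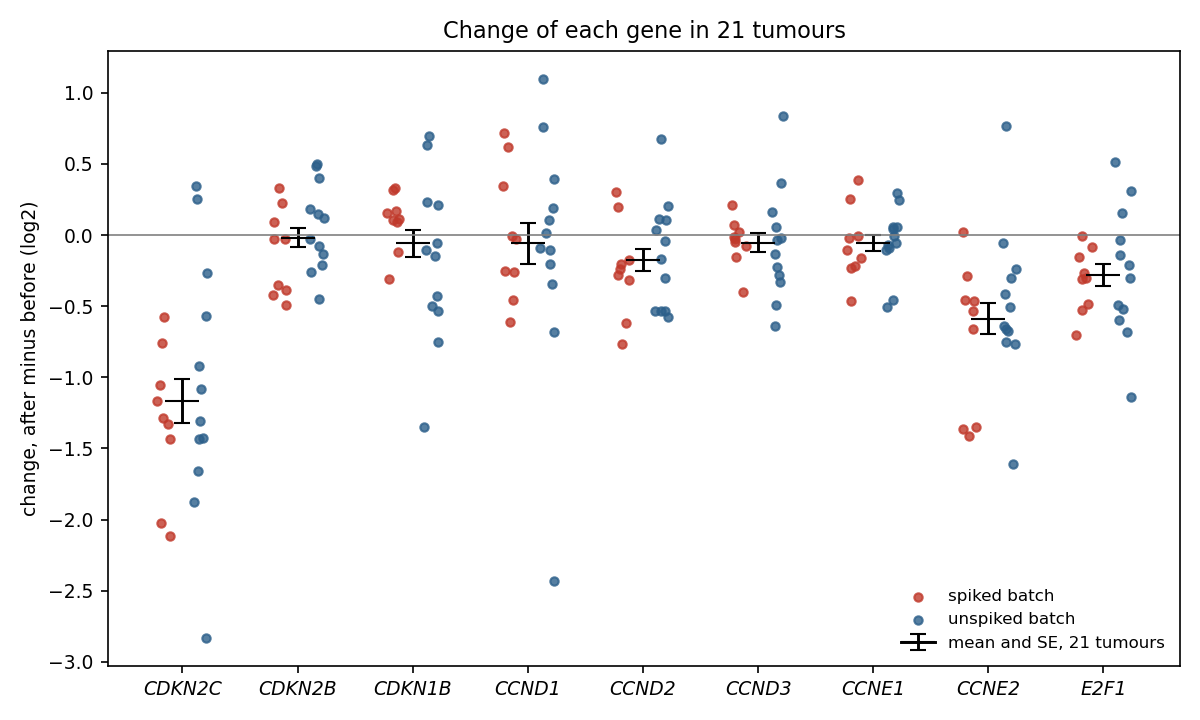
Change (after minus before, log2) of each gene in each of 21 tumours, with the spiked batch left and the unspiked batch right of each mean. Black marks are means with SE. CDKN2C, CCNE2 and E2F1 lie mostly below 0, and CCND1 has the widest spread among the genes that were not called, from -2.43 to 1.10.

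The changes of the members were next set against the mean change of 17 measured mitosis genes, which are high in dividing cells. These genes changed by a mean of -0.82 ± 0.74 (SD, n = 21 tumours), and were lower in 18 tumours and higher in tumours 13, 15 and 5. Over 18 relations, 9 with the mitosis genes and 9 with CDKN1A, p-values came from permutation of tumours and were adjusted together. Both values of a tumour come from the same pair of arrays. CDKN2C went with the mitosis genes (Pearson r = 0.811, Spearman rho = 0.744, n = 21, permutation adjusted p = 0.000360 and 0.00216). Without tumours 13 and 15, the farthest from the median, r was 0.669 (rho = 0.654, permutation adjusted p = 0.0139 and 0.0526). It was 0.690 in the spiked batch (n = 9, permutation adjusted p = 0.395). In the unspiked batch it was 0.839 (rho = 0.762, n = 12, permutation adjusted p = 0.00882 and 0.0508).

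For E2F1 the relation held over all tumours and not in the spiked batch, and whether the batches differ in it was not tested. Over all tumours r was 0.696 (rho = 0.505, permutation adjusted p = 0.00540 and 0.130), and without tumours 13 and 15 it was 0.486 (permutation adjusted p = 0.204, unadjusted p = 0.0341), so that the call was lost without them. It was 0.928 in the unspiked batch (n = 12, permutation adjusted p = 0.000360) and -0.298 in the spiked batch (n = 9, permutation adjusted p = 0.742). For CCNE2 r was 0.588 (rho = 0.552, permutation adjusted p = 0.0307 and 0.0922), and 0.667 without tumours 13 and 15 (rho = 0.530, permutation adjusted p = 0.0139 and 0.191). Spiked tumours alone gave 0.598 and unspiked ones 0.562, and neither passed (permutation adjusted p = 0.562 and 0.336). With S phase genes in place of the mitosis genes r was 0.487 for CCNE2, which did not pass (permutation adjusted p = 0.151), 0.647 for CDKN2C and 0.680 for E2F1, which did (permutation adjusted p = 0.0147 and 0.0131). By rho none of these genes passed with the S phase genes (0.497 for CCNE2, 0.540 for CDKN2C and 0.494 for E2F1, permutation adjusted p = 0.145 each). For the other 6 members r lay between -0.200 and 0.271, and none passed (lowest permutation adjusted p = 0.709).

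**Figure D3:**
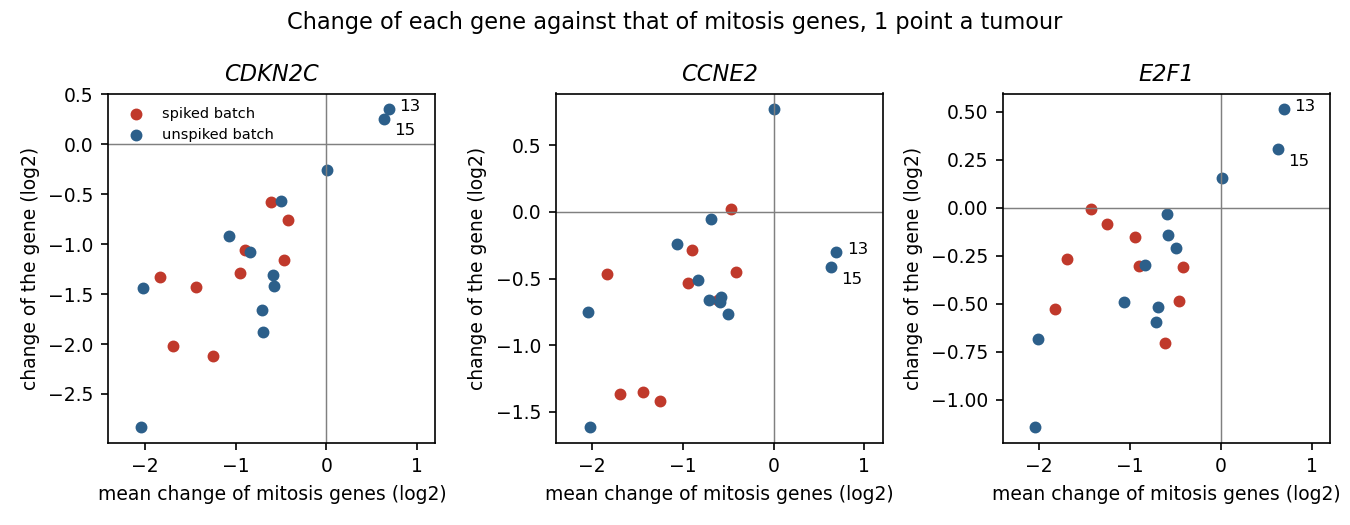
Change (log2) of CDKN2C, CCNE2 and E2F1 against the mean change of 17 mitosis genes. Each of 21 tumours is 1 point, coloured by spiked or unspiked batch. Tumours 13 and 15, which are numbered, had the highest mitosis gene change. Pearson r over all tumours was 0.811 for CDKN2C, 0.588 for CCNE2 and 0.696 for E2F1.

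CDKN1A, the CIP/KIP inhibitor induced by p53, changed in the opposite direction to CDKN2C. CDKN1A was higher after treatment in all 21 tumours, so the 2 genes ran in opposite directions in the 19 tumours where CDKN2C was lower. The sizes of the 2 changes were not seen to go together (r = -0.042, rho = -0.140, n = 21, permutation adjusted p = 0.932 and 0.871). None of the 9 members passed against the CDKN1A change, and the largest r was 0.427, for CCNE1 (permutation adjusted p = 0.245).

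Before treatment, the level of CCNE2 followed the mean level of the mitosis genes across tumours, and so did that of CDKN2C. These 9 relations were added after the changes had been seen. For CCNE2 r was 0.781 (rho = 0.806, n = 21, permutation adjusted p = 0.000180 and 0.000360), and it passed in the spiked batch (r = 0.913), in the unspiked batch (r = 0.746) and without the 2 farthest tumours (r = 0.734). For CDKN2C r was 0.743 (rho = 0.675, permutation adjusted p = 0.000270 and 0.00414), with 0.778 in the spiked batch (permutation adjusted p = 0.0520) and 0.779 in the unspiked batch (permutation adjusted p = 0.0240). Without the 2 farthest tumours r was 0.579 (rho = 0.574, permutation adjusted p = 0.0448 and 0.0550). The other 7 members had r between -0.398 and 0.457 and did not pass. For E2F1 the level before treatment did not pass (r = 0.367, permutation adjusted p = 0.181).

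The genes whose change over the 21 tumours was most like that of each member were found by Pearson's r among 9177 or 9178 genes with a mean level at or above the median of all probe sets. For CDKN2C they were CDK1 (r = 0.862), CCNB2 (0.843) and PRC1 (0.809). For CCNE2 they were EZH2 (0.688), PRIM2 (0.687) and CDC26 (0.683), and for E2F1 they were CDT1 (0.838), HSPB6 (0.813) and GPR162 (0.798). CDK1 encodes the mitotic kinase and CCNB2 a cyclin that binds it. For CCND1 the genes were PPM1G (0.840), CFL1 (0.822) and GAS2L1 (0.810), for CCND2 they were GPR4, TEPSIN and IMPDH1 (0.679 to 0.687), and for CCND3 they were HIGD2A, SEPTIN5 and SQLE (0.689 to 0.745). For CCNE1 they were LPIN2, SLC15A4 and UCHL5 (0.737 to 0.751), for CDKN1B they were HOXB4, ARHGAP5 and SGTB (0.747 to 0.793), and for CDKN2B they were LPAR1, RBM48 and SYNPO (0.639 to 0.719). As the highest among so many genes these r are descriptions, with no test.

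The other genes of the pathway are described by counts. Among 8 G1 kinases and activators none was called, and the kinase genes CDK2 (0.01 ± 0.06), CDK4 (-0.07 ± 0.07) and CDK6 (0.09 ± 0.07) had small mean changes (SE, n = 21, limma adjusted p from 0.522 to 0.949). Of 11 measured pocket protein, E2F and DP genes, RB1 and the repressor gene E2F8 fell and none rose. RB1 changed by -0.39 ± 0.11 (SE, n = 21, limma adjusted p = 0.0278) by its main probe set and by -0.13 ± 0.09 (limma adjusted p = 0.454) by its other one, so the probe sets disagree on the call. E2F8 changed by -0.26 ± 0.07 (limma adjusted p = 0.0213).

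Among the other CDK inhibitors, CDKN1A rose by 1.85 ± 0.18 (SE, n = 21, limma adjusted p = 1.06e-05) in all 21 tumours. CDKN2D, another INK4 inhibitor gene, fell by 0.23 on the log2 scale (SE 0.06, n = 21, limma adjusted p = 0.0168), being lower in 19 tumours. Its other probe set changed by -0.15 (limma adjusted p = 0.0619). CDKN3 was not called. The INK4 genes measured therefore ran from CDKN2C through CDKN2D to CDKN2B in the size of the mean change, with no test between CDKN2D and the others.

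Of 9 measured genes for the turnover of G1 regulators, SKP2, whose product directs the CDKN1B protein to degradation, fell (-0.22 ± 0.06, limma adjusted p = 0.0241) and GSK3B, whose kinase marks the CCND1 protein for export and degradation, rose (0.25 ± 0.06, limma adjusted p = 0.0211). None of 8 upstream regulators, among them MYC (-0.23 ± 0.11, limma adjusted p = 0.236) and FOXO1 (-0.19 ± 0.09, limma adjusted p = 0.260), was called. Of 24 measured E2F targets of S phase, 10 fell and 1 rose. Those with the smallest p were RRM2 (-1.67), DTL (-0.30), CCNA2 (-0.90), PCNA (0.76, the gene that rose), CDC45 (-0.43) and SLBP (-0.25), with limma adjusted p from 0.000447 to 0.00879. Of 17 measured mitosis genes 16 fell, and AURKA was not called. The median change was -0.28 over the S phase list and -0.82 over the mitosis list, against -0.06 over the members.

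**Figure D4:**
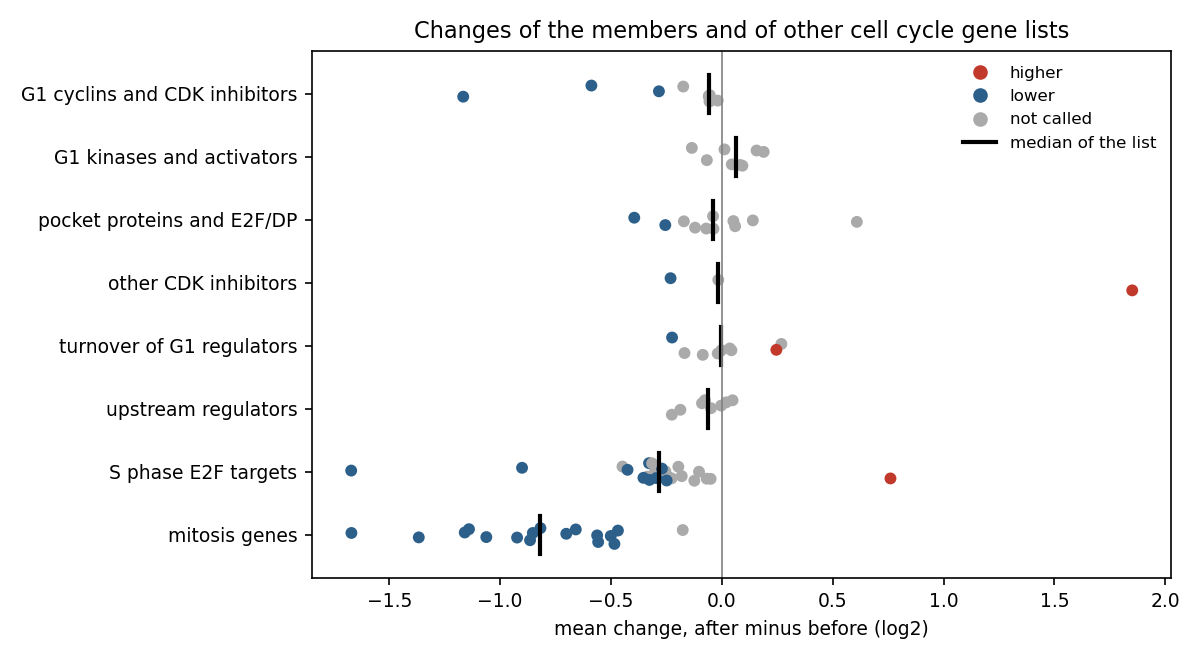
Mean change (after minus before, log2) of each measured gene of the G1 regulators and of 7 other cell cycle lists, 1 point a gene. Red and blue points passed limma at an adjusted p under 0.05, grey points did not, and black bars are list medians. Among the members CDKN2C, CCNE2 and E2F1 are blue, and 16 of 17 mitosis genes are blue.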

How the data were processed

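RNA of dog sarcomas was hybridised to 42 Affymetrix canine arrays. The deposited values are log2 levels, which the authors made with RMA in Affymetrix Expression Console per the submitters' processing notes, with versions not given in the sources used here. RMA corrects background, applies quantile normalisation and summarises each probe set, so a shift common to most genes would be removed. Of the rows, 111 control probe sets were left out and 42924 were tested. All 12 probe sets of the members matched a RefSeq gene of the same symbol by gene identifier.

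The tumour code at the start of each title gave the pairs. As a check, 21 of 21 arrays after treatment correlated best with the array of the same tumour before it, once group means were removed (r from 0.438 to 0.900). Changes are after minus before, fitted with limma 3.58.1 under R 4.3.3, using tumour blocks, eBayes and Benjamini-Hochberg adjustment over all probe sets. The SE of a mean change comes from this fit, with its variance drawn towards that of all probe sets. For a difference between members the SE is the SD over tumours divided by the square root of n. Differences between members and relations over tumours used 100000 permutations (exact within batches for sign flips) in Python 3.11.15 with NumPy 2.4.6, SciPy 1.17.1 and pandas 2.3.3; figures used Matplotlib 3.10.9. The batches were split at a mean poly-A control level of 5.26. Of 6 planned pairs of members 5 could be tested. The paired limma fit and the permutation tests were tested on simulated data.

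The members, the gene lists and the rule for named genes were chosen with earlier results of these data known. The rule takes all members, up to 6 called genes a list by smallest p, some G1 genes whatever their p, and the 3 genes most alike each member. Mitosis and T cell genes are also named as parts of counts. Alternatives were no block, a random block, a level filter, array weights, shrinkage with trend and robust settings, a second quantile normalisation and median centring. Others were the 3′ to 5′ contrast, averaged probe sets, each batch alone, S phase in place of mitosis genes, rank correlation and leaving out tumours. Relations of levels before treatment and between pairs of members, with their alternatives, were added after seeing the data.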

Additional observations from a re-analysis of the deposited data

How the results depend on the processing

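CDKN2C and CCNE2 were called lower in all 21 fits that left out 1 tumour and under 10 of 12 other settings, the exceptions being the fit with no replicate block and the unspiked batch alone. CCNE2 has no second probe set, so for it averaging probe sets only repeats the main fit. Leaving out tumours 13 and 15, another of these settings, removed the only tumours in which CDKN2C rose, so for CDKN2C it is a weak check. With no replicate block, which ignores that arrays come from the same tumours, 0 members and 30 probe sets were called. In the unspiked batch alone limma called 0 members and 0 probe sets (4989 had an unadjusted p under 0.05), and among the spiked tumours alone it called 3 members and 1293 probe sets. Without tumours 13 and 15, 3861 probe sets were called, against 2558 in all tumours, and leaving out 1 tumour gave 2 to 3 members called lower and 1816 to 3171 probe sets. E2F1 lost its call with no block, in the unspiked batch alone and with the RNA quality contrast, and a filter at the median level left it untested. The differences of CCNE2 from CCNE1 and of CDKN2C from CDKN2B kept their direction and call in all 21 fits without 1 tumour and under 6 other settings each. Among those settings, centring on the array median could not alter a difference between genes of the same array, so it is no check.

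The r of E2F1 with the mitosis gene change, called over all tumours, was -0.298 in the spiked batch alone, and some relations that were not called also changed sign between settings. Among mean changes and differences, those that changed sign were near 0 and not called. CDKN2B changed by 0.0098 with the RNA quality contrast, by 0.055 in the unspiked batch alone and by -0.045 to 0.0051 without 1 tumour. CDKN1B changed by 0.096 in the spiked batch alone and by -0.096 to 0.0062 without 1 tumour, and CCND1 by 0.0075 in the spiked batch alone and by -0.12 to 0.060 without 1 tumour. CCND1 minus CCND3 was 0.053 in the spiked batch alone, 0.014 with averaged probe sets and -0.075 to 0.11 without 1 tumour. Of 3 members whose change passed with the mitosis genes, 0 passed in the spiked batch alone and 1 passed by Spearman's rho. Each batch holds fewer tumours, and the cause of these differences was otherwise not tested. CDKN2B, CDKN1B, CCND3 and E2F1 had mean levels below 5.28, the median of all probe sets, and no detection calls were used here.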

Other observations

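Members were also set against each other across the 21 tumours, in 36 pairs, chosen after seeing the data. Of the levels before treatment 3 pairs passed by Pearson's r. CCND2 and CCND3 were high in the same tumours (r = 0.660, permutation adjusted p = 0.0376), CCND1 and CCND3 ran in opposite directions (r = -0.655, permutation adjusted p = 0.0376), and CDKN2C and CCNE2 ran together (r = 0.599, permutation adjusted p = 0.0488). By Spearman's rho 0 of 36 pairs passed, and 0 passed in either batch alone or without the 2 tumours farthest from the median of the first gene. For CCND2 and CCND3 r was 0.217 without tumours 4 and 17, for CCND1 and CCND3 it was -0.418 without tumours 15 and 17, and for CDKN2C and CCNE2 it was 0.513 without tumours 17 and 20. Tumours 4 and 17, both of the unspiked batch, combined CCND1 levels below the median (8.58 and 7.37) with the highest CCND2 (10.8 and 10.5) and CCND3 (6.64 and 6.35) before treatment.

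Of the changes 0 of 36 pairs passed over all tumours, with CDKN2C and E2F1 nearest (r = 0.656, permutation adjusted p = 0.0544). Within the unspiked batch the changes of CDKN2C and E2F1 ran together (r = 0.906, n = 12, permutation adjusted p = 0.00468), while in the spiked batch r was -0.606 (n = 9). In the spiked batch 1 other pair passed, CCND2 with E2F1 (r = 0.933, n = 9, permutation adjusted p = 0.00756). Whether these relations differ between the batches was not tested.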
